A study of Drosophila melanogaster with 16 samples.

Results

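The 213 H3K9me3 regions that the deposited lists place on chromosome 4 of Drosophila melanogaster are described here, 98 of 5144 in the list for the tj driver and 115 of 5421 in the list for the nos driver. They were chosen by position alone: every listed region whose chromosome was given as 4 is a member, whatever its level or change. Ovaries of flies kept at 25 degrees and aged 3 to 5 days carried either tj-GAL4, which drives expression in somatic cells around the germline, or nos-GAL4, which drives it in germ cells. Each driver was combined with a knockdown of piwi, a nuclear Argonaute protein guided by small RNAs to transposon transcripts, or with a knockdown of the pigment gene white as control. Each of the 4 groups (Tj-GAL4->piwi, Tj-GAL4->white, nos-GAL4->piwi and nos-GAL4->white) had 1 H3K9me3 ChIP-seq sample from the chromatin of 50 ovaries. Every sample therefore mixed the cells in which a driver is active with those in which it is not, and fewer marked cells and less mark per cell cannot be told apart. With 1 library per group there is no spread between replicates and no test between knockdowns, and each interval given below covers counting error only.

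Chromosome 4, the dot chromosome, is the smallest autosome of the fly. Most of its gene-bearing arm is packaged with histone H3 methylated at lysine 9 and with the heterochromatin protein HP1a, yet many of its genes are expressed, and single-copy genes lie between transposon remnants such as hoppel and INE-1. In flies the methyltransferase eggless (SETDB1) deposits much of the methylation on this chromosome, and the protein POF binds its genes. Piwi acts on chromatin through transposon transcripts, so a chromosome that holds heterochromatin and transposons throughout its length is a natural place to ask whether the mark depends on piwi.

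Chromosome 4 was the most densely covered sequence in both lists. The tj regions covered 911.0 kb, which is 71.0% of the stretch from the first to the last region, and the nos regions covered 804.5 kb, or 65.6%. Among the 11 sequences with at least 50 regions, both shares ranked first. The nearest was the scaffold 3LHet, at 40.5% and 38.1%, and the arm X reached 14.0% and 15.1%. The regions were also the longest, with a median of 6000 bases under tj and 4500 under nos, against 2000 for all other regions in either list. Of the tj regions 35 of 98 (35.7%) spanned at least 10 kb, against 5.23% of the other regions, and of the nos regions 26 of 115 (22.6%), against 4.62%. The longest was chr4:1053501-1097000 in the tj list (43.5 kb), and the nos list held chr4:1053501-1093000 (39.5 kb) at the same left bound. All coordinates are on build dm3 and count from 1.

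The level of H3K9me3 was taken as RPM (reads-per-million) per kb of region, so that regions of different length can be compared. Its median was similar to that of the heterochromatin scaffolds. In tj white knockdown the median chromosome 4 region had 27.0 RPM per kb, with a range from 7.35 to 87.6. The median was 19.8 on the euchromatic arms (X, 2L, 2R, 3L and 3R), 25.8 on the heterochromatin scaffolds (names ending in Het) and 27.6 on the unplaced scaffolds. In nos white knockdown the corresponding medians were 25.5, 20.2, 25.8 and 27.4 RPM per kb, and chromosome 4 ranged from 6.73 to 90.8. Relative to all other regions the chromosome 4 median was 1.22 times as high under tj and 1.13 times under nos. Averaged over covered bases, tj white had 42.0 RPM per kb on chromosome 4 and 35.8 on the heterochromatin scaffolds. The averages in nos white were 38.6 and 35.6. Levels are not corrected for input. These are descriptions of 2 control libraries, with no test, and regions of 1 library are not replicates.

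**Figure D1:**
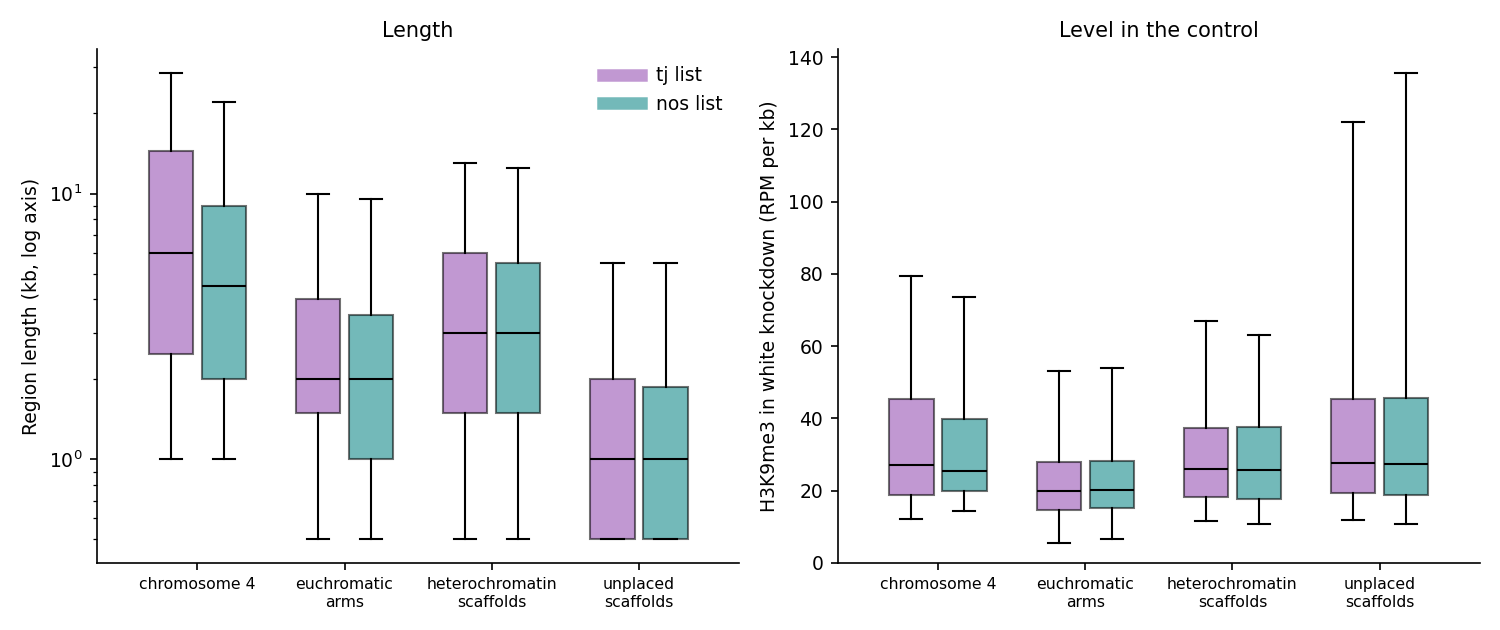
Left, length of the listed regions in kb on a log axis, and right, H3K9me3 level in white knockdown in RPM per kb, by genome compartment and list. Boxes span the quartiles with the median as a line, and whiskers reach from the 5th to the 95th percentile of regions. Chromosome 4 regions have the largest median length (6000 and 4500 bases), while their median level (27.0 and 25.5 RPM per kb) lies near that of the heterochromatin scaffolds.

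The mark was uneven along the chromosome. The highest levels in the controls sat in the same places under both drivers. The region with the highest level was chr4:366501-378500 in tj white knockdown, at 87.6 RPM per kb, and chr4:368001-378000 in nos white knockdown, at 90.8. In tj white chr4:624001-631500 came next, at 85.3 RPM per kb, and nos white had 68.6 at chr4:624001-632500. Listed with the same bounds under both drivers, chr4:150501-153000 had 83.2 RPM per kb in tj white and 82.3 in nos white. Further right, chr4:880501-900000 had 83.9 and 73.6 RPM per kb and chr4:934001-952500 had 79.8 and 74.7. The lowest level in tj white, 7.35 RPM per kb, belonged to chr4:555001-556500, and the lowest in nos white, 6.73, to chr4:1098501-1101500. Longer regions also tended to have higher levels. The Spearman rho between length and the mean level of white and piwi knockdown was 0.62 across 98 tj regions and 0.51 across the nos regions. It is a description of regions that share libraries and whose bounds depend on the same reads.

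**Figure D2:**
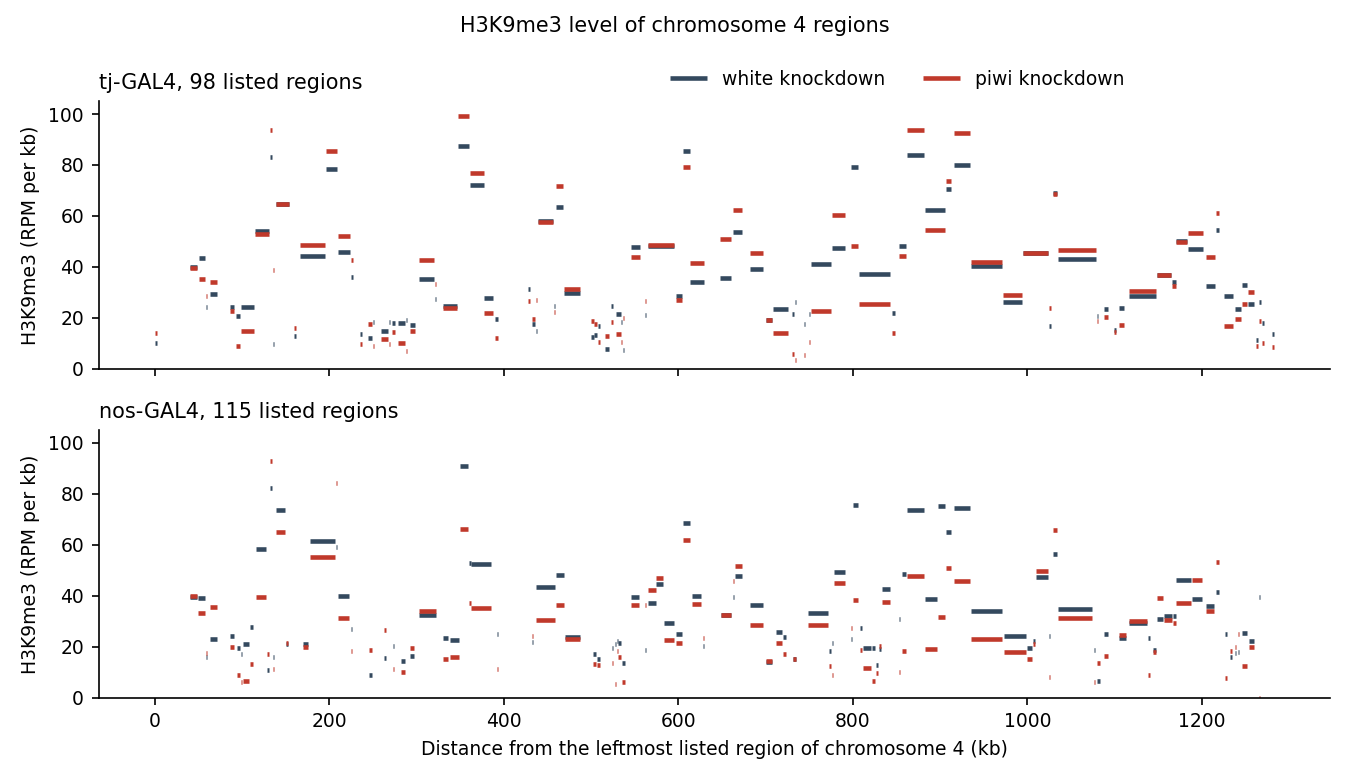
H3K9me3 level in RPM per kb of each listed chromosome 4 region (bars drawn to scale) in white and piwi knockdown, against distance in kb from the leftmost listed region, with 98 regions under tj and 115 under nos. The highest peaks recur in both controls, and under nos the piwi bars lie below the white bars over long stretches to the right of the middle.

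The 2 lists placed the mark over largely the same bases. Of the tj regions 87 of 98 (88.8%) overlapped a nos region by at least 1 base, and of the nos regions 112 of 115 (97.4%) overlapped a tj region. By the same count, 77.8% of tj and 74.5% of nos regions overlapped on the euchromatic arms. On the heterochromatin scaffolds 92.3% and 93.5% did, and on the unplaced scaffolds 88.0% and 83.9%. The shared 774.5 kb made up 85.0% of the tj bases and 96.3% of the nos bases. On the euchromatic arms these shares were 72.0% and 73.4%, and on the heterochromatin scaffolds 89.5% and 92.4%. Regions covered 71.0% (tj) and 65.6% (nos) of the chromosome 4 stretch, but at most 15.1% of any arm. Lists placed without regard to each other would thus already share more bases on chromosome 4. The shares therefore do not rank the compartments by how well the lists match. The 11 tj regions without a partner were at most 4000 bases long and had a median control level of 17.4 RPM per kb, against 29.4 for the shared ones. The 3 nos regions without a partner were at most 1500 bases long. Boundaries differed between the lists, and with a reciprocal overlap of at least 50% required, 60 pairs were left.

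Under the tj driver, the first question was whether chromosome 4 loses H3K9me3 when piwi is knocked down in somatic cells. Summed over the 98 regions, piwi knockdown had 38383 RPM and white knockdown 38227 RPM, a ratio of 1.0 (95% counting interval 0.992 to 1.02). The median region had a log2 ratio of -0.011, against -0.025 for all other regions, and the quartiles were -0.47 and 0.18. That median is too near 0 for a direction, since it was 0.014 after centring on the other regions. Ratios lay above 1 for 44 regions and below 1 for 54, against 2452 above and 2692 below over all 5144 tj regions. Reads behind these sums were 55113 in piwi and 55501 in white knockdown.

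Past the 1.5-fold mark, more tj regions were lower than higher. In piwi knockdown 4 of 98 regions were at least 1.5-fold higher (4.08%), where 15.1% of all 5144 regions and 18.4% of those on the euchromatic arms were. At least 1.5-fold lower were 21 (21.4%), where 17.7% of all regions and 22.9% of those on the arms were. The counting interval lay above 1 for 25 regions (25.5%, with 16.0% over all regions) and below 1 for 26 (26.5%, with 20.1% over all regions). Chromosome 4 regions hold more reads than most, a median of 255.5 in tj white knockdown against 56.0 elsewhere, and more reads narrow an interval. At the stricter 2-fold mark 2 tj regions were higher (8.07% over all regions) and 7 lower (9.14% over all regions). Where the library with more reads held 100 or more, 0 of 66 chromosome 4 regions were at least 1.5-fold higher (6.58% of all such regions) and 10 of 66 were lower (15.2%, against 13.4% of all such regions). The regions past the mark in either direction were mostly weakly marked. Of the 21 lower ones, 19 lay in the lower 49 regions by mean level of both libraries and 2 in the upper 49. All 4 higher ones lay in the lower 49 too. Median reads in tj white knockdown were 62 in the lower and 863 in the upper 49. The mean level includes piwi knockdown, so a low ratio itself moves a region towards the lower set. The summed ratio was 0.789 (0.759 to 0.820) in the lower and 1.03 (1.02 to 1.04) in the upper set.

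The 4 higher regions were short. The region chr4:154501-155000 had 19.5 RPM in piwi and 4.82 RPM in white knockdown, from 28 and 7 reads, a ratio of 4.04 (1.73 to 11.0). It has fewer than the 30 reads required for naming a region by its ratio and is given because the count is small. At chr4:555001-556500 the values were 29.9 and 11.0 RPM, 2.72-fold higher (1.5 to 5.17). The other two, chr4:455001-457000 and chr4:535001-539000, were 1.83-fold and 1.65-fold higher. Just outside the mark, chr4:519001-521500 was 1.49-fold higher, followed by chr4:263501-268000 at 1.45-fold and chr4:666001-679000 at 1.43-fold. The last of these was a well-covered region, with 662 RPM in piwi and 464 RPM in white knockdown, and an interval of 1.29 to 1.58.

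The 3 smallest tj ratios among regions with enough reads lay in 1 stretch. From chr4:719001 to chr4:793500, 7 consecutive regions were all below 1, with 919 RPM in piwi against 1590 RPM in white knockdown, a ratio of 0.578 (0.539 to 0.618). Within it, chr4:752001-753000 had 3.48 against 26.2 RPM, a ratio of 0.133 (0.0409 to 0.339). The region to its left, chr4:749001-751000, had 11.8 against 43.4 RPM (0.273, 0.150 to 0.472), and chr4:762501-764000 had 8.36 against 26.2 RPM (0.319, 0.152 to 0.624). The long chr4:771001-793500, 22.5 kb, held most of the reads and had 510 against 931 RPM, a ratio of 0.548 (0.50 to 0.60). These 4 regions range from 1000 to 22500 bases, so that low ratios stood in short and long regions. Directly to the right the direction turned, since chr4:795001-810000 had 907 RPM in piwi and 714 RPM in white knockdown, 1.27-fold higher (1.17 to 1.38). Beyond it chr4:817001-824500, with one of the 8 highest control levels, was at 0.610 (0.546 to 0.681) and chr4:826001-861000 at 0.681 (0.634 to 0.732), just outside the 1.5-fold mark. Elsewhere, chr4:111501-116000 had 41.1 against 93.7 RPM, a ratio of 0.439 (0.318 to 0.60), and the adjacent chr4:118001-132500 was at 0.615 (0.532 to 0.709). The regions just inside the mark were at 0.646, 0.643 and 0.627 times the control.

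The 8 tj regions with the highest control level kept close to it, with 1 exception. Apart from chr4:817001-824500 their ratios ran from 0.929 at chr4:624001-631500 to 1.16 at chr4:934001-952500. The 2 regions at 880501 and 934001 had 93.8 against 83.9 and 92.4 against 79.8 RPM per kb in piwi and white knockdown. Of the 5 longest regions, 4 had ratios between 1.0 and 1.08, and the remaining one was chr4:826001-861000.

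**Figure D3:**
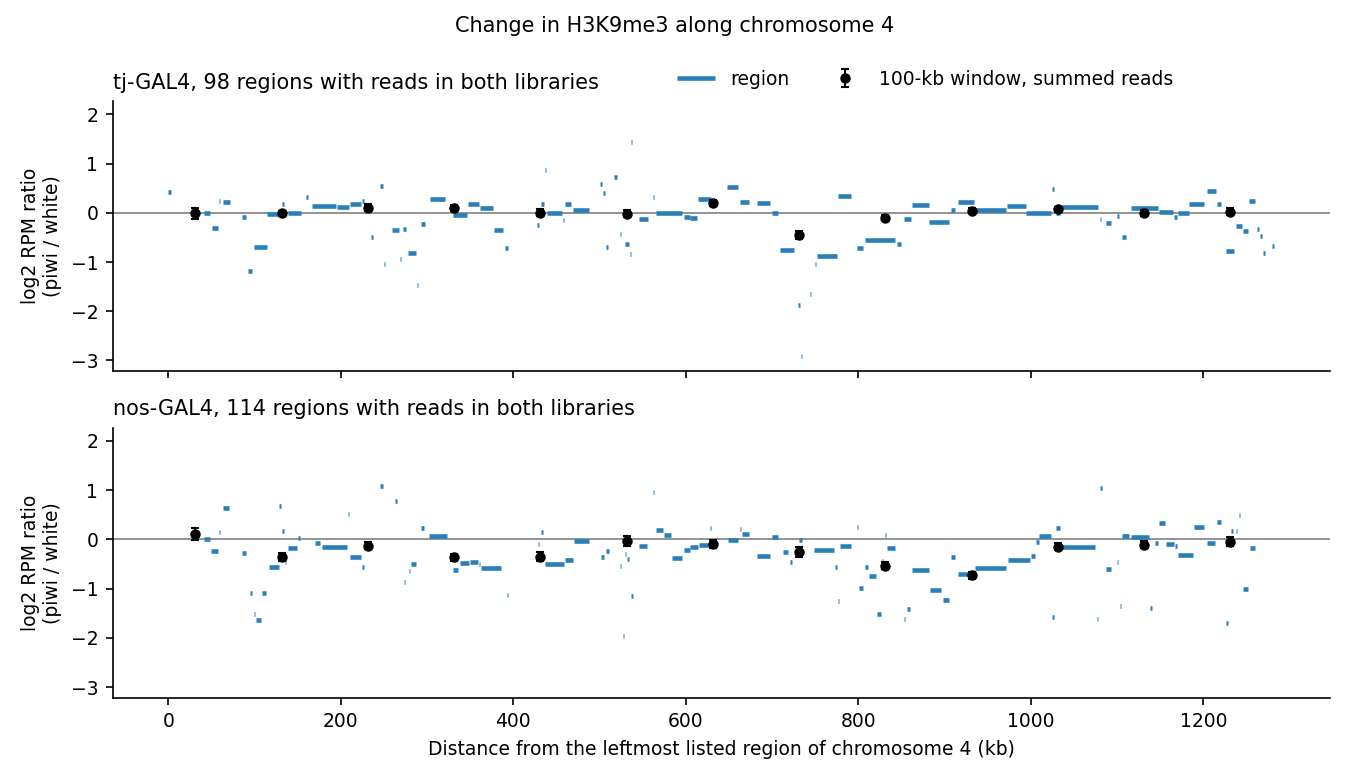
log2 of the RPM ratio, piwi over white knockdown, of each chromosome 4 region (blue, drawn to scale) and of the reads summed over 100-kb windows by region midpoint (black, with 95% counting intervals), against distance in kb from the leftmost listed region. Under tj 6 of 13 windows lie below 0, with a range from -0.45 to 0.20 and intervals below 0 for 2 and above 0 for 4. Under nos 12 of 13 windows lie below 0, with a range from -0.73 to 0.11 and intervals below 0 for 10 and above 0 for 0. The nos region with no reads in piwi knockdown has no point.

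Under the nos driver the same question was asked for the germline. Chromosome 4 had a lower H3K9me3 RPM in piwi knockdown, with 25495 RPM against 31025 RPM summed over the 115 regions, a ratio of 0.822 (0.809 to 0.835). The median log2 ratio was -0.27, with quartiles of -0.61 and 0.057. Below 1 were 82 of 115 regions, against 2164 of 5421 over all nos regions. All other regions had a median of 0.17, so relative to them the chromosome 4 median was -0.44. The 2 libraries rested on 25168 and 42998 chromosome 4 reads. Under tj the same difference from the other regions was 0.014.

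The chromosome 4 median under nos was below 0 with either set of library totals. The authors' transposon table implies other totals for the same samples, and with those every nos ratio moves by -0.24 on the log2 scale and every tj ratio by -0.020. The chromosome 4 median then became -0.51 under nos and -0.032 under tj, and the median of the other regions -0.070 under nos. A measure without any total is the number of chromosome 4 reads set against reads in other regions of the same library. Relative to the euchromatic arms these were 10.3% in nos white and 8.69% in nos piwi, a ratio of 0.847 (0.833 to 0.861), and relative to the heterochromatin scaffolds the ratio was 0.647 (0.636 to 0.658). Under tj the ratios were 1.06 (1.05 to 1.08) and 1.01 (0.995 to 1.02). Both measures are relative to other reads of the same library, and under nos the heterochromatin scaffolds themselves had a summed ratio of 1.27. On 3R the summed ratio under nos was 0.753, below the 0.822 of chromosome 4. An absolute loss of the mark was therefore not tested. The region lists hold no input values, so these ratios are not corrected for DNA content, and its part in the result was not tested.

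Genome-wide, the compartments moved apart under nos. The median log2 ratio was -0.27 on chromosome 4, 0.0094 on the euchromatic arms, 0.35 on the heterochromatin scaffolds and 0.38 on the unplaced scaffolds. Under tj these were -0.011, -0.054, 0.00042 and 0.016. Among the 11 sequences with at least 50 regions, chromosome 4 had the lowest median under nos, and the second lowest summed log2 ratio, -0.28 after -0.41 on 3R. Under tj it ranked 5 by both measures. The compartments thus had like medians under tj. Under nos chromosome 4 did not share the higher ratios of the heterochromatin scaffolds, to which it was close in median control level. No test of the difference between compartments was possible with 1 library per group.

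**Figure D4:**
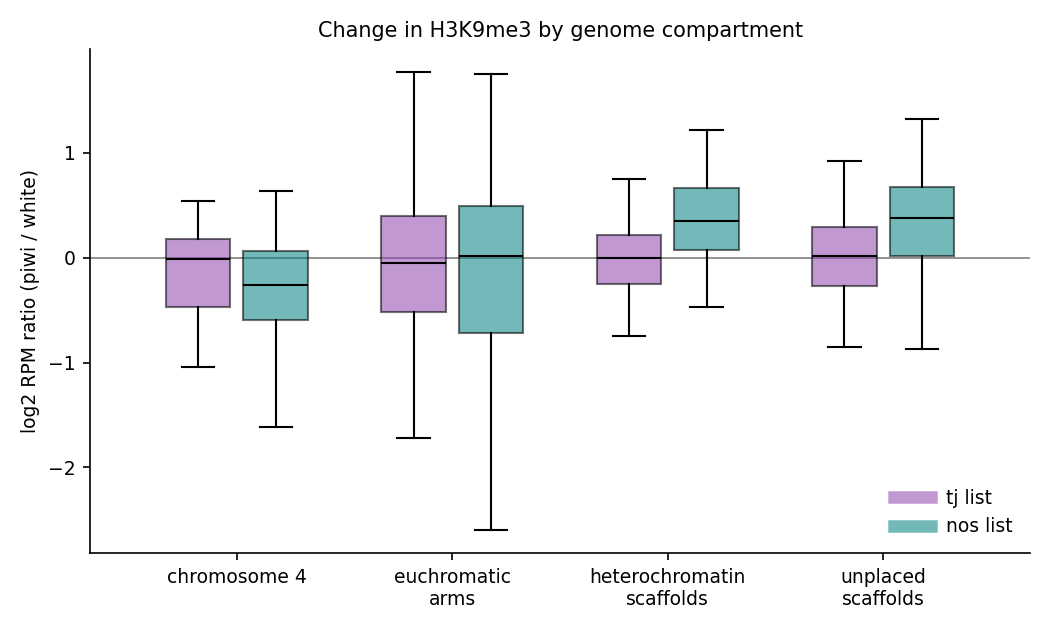
log2 of the RPM ratio, piwi over white knockdown, by genome compartment and list, for regions with reads in both libraries. Boxes span the quartiles with the median as a line, and whiskers reach from the 5th to the 95th percentile of regions. The 4 tj medians lie near 0. Under nos the median of chromosome 4 lies lowest, and the boxes of the heterochromatin and unplaced scaffolds lie above 0. Over all listed nos regions the lower quartile was -0.75 on the euchromatic arms and -0.61 on chromosome 4, so the arms reached lower.

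Among single nos regions, 7 of 115 were at least 1.5-fold higher (6.09%), against 24.8% of all 5421 regions and 21.7% of those on the euchromatic arms. At least 1.5-fold lower were 30 (26.1%), a larger share than the 19.6% of all regions but a smaller one than the 28.2% on the arms. Both counts move with the scaling, as do those over all regions. After centring on the other regions 5 were higher (17.8% over all regions) and 47 lower (23.9% over all regions), and with the transposon table's totals 4 were higher (15.8% over all regions) and 53 lower (26.1% over all regions). The counting interval lay above 1 for 10 regions (8.70%, with 27.8% over all regions and 22.6% on the arms). It lay below 1 for 48 (41.7%, with 17.6% over all regions and 25.7% on the arms). At 2-fold 2 nos regions were higher (11.4% over all regions) and 22 of 115 lower (13.8% over all regions, and 665 of 3198 on the arms). Where the library with more reads held 100 or more, 1 of 67 was at least 1.5-fold higher, against 14.4% of all such regions, and 13 of 67 were lower (19.4%, against 14.2% of all such regions). Both strongly and weakly marked regions were lower in sum. In the upper 57 regions by mean level the summed ratio was 0.836 (0.822 to 0.850), and in the lower 58 it was 0.730 (0.698 to 0.763). Of the 26 regions of at least 10 kb, 22 were below 1 and 18 had an interval below 1, while of the 245 other nos regions of that length 84 were below 1 and 58 had an interval below 1.

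The longest nos stretch below 1 held 7 of the 30 lower regions. From chr4:852001 to chr4:1027500, 13 consecutive regions with 148.0 kb of covered sequence were all below 1, with 4400 RPM in piwi and 6881 RPM in white knockdown, a ratio of 0.639 (0.617 to 0.663). At chr4:916501-924000 the values were 239 against 564 RPM, a ratio of 0.424 (0.365 to 0.491). Its left neighbour chr4:901501-915000 was at 0.489 (0.422 to 0.565), and chr4:875501-879000 had 63.8 against 170 RPM (0.376, 0.280 to 0.499). The longest member, chr4:953501-989500, had 825 against 1230 RPM, a ratio of 0.670 (0.616 to 0.729), just outside the 1.5-fold mark. This stretch holds 3 of the 8 highest control levels in nos white knockdown, at chr4:880501-900000, chr4:916501-924000 and chr4:934001-952500. A second stretch, from chr4:104501 to chr4:146500, held 6 consecutive regions below 1 at a summed ratio of 0.612 (0.557 to 0.670). In it chr4:120001-126500 had 43.6 against 136 RPM, a ratio of 0.319 (0.224 to 0.447). Another, of 5 regions from chr4:819001 to chr4:847500, was at 0.533 (0.475 to 0.598), with chr4:840001-844500 at 0.348 (0.225 to 0.523).

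The region chr4:1284001-1285000 had 0 reads in nos piwi knockdown and 55 reads, or 39.7 RPM, in nos white knockdown. A count of 0 allows up to 3 reads, or 3.04 RPM in that library, which is 13.1-fold below the control value if that value is taken as exact. With counting error in both libraries, the interval of the ratio ran from 0 to 0.0974. Under tj the overlapping chr4:1284001-1286500 had 47.4 RPM in piwi and 66.1 RPM in white knockdown, a ratio of 0.716 (0.517 to 0.987). Further low ratios were seen at chr4:545501-547000 (8.10 against 31.7 RPM, 0.255, 0.104 to 0.548) and chr4:1245001-1247500 (19.2 against 62.8 RPM, 0.307, 0.176 to 0.508). Just inside the mark were regions at 0.658, 0.653 and 0.651 times the control, and just outside it regions at 0.670, 0.670 and 0.674.

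The 7 higher nos regions were from 500 to 8000 bases long, and 3 of them lay in the upper 57 regions by mean level. At chr4:264001-268000 the values were 74 reads in piwi and 49 reads (35.4 RPM) in white knockdown, which in RPM is 2.12-fold higher (1.46 to 3.11), and at chr4:1098501-1101500 they were 41.5 and 20.2 RPM, 2.06-fold higher (1.24 to 3.45). At the first of these the tj list had chr4:263501-268000, also higher, at 1.45-fold, with an interval above 1. Both drivers thus had more reads there in piwi knockdown, from different control libraries. The longest of the 7 was chr4:81501-89500, with 286 against 184 RPM, 1.55-fold higher (1.31 to 1.85). The remaining ones were chr4:580501-581500 at 1.94-fold, chr4:562001-562500 at 1.87-fold, chr4:281001-283500 at 1.72-fold and chr4:147501-149500 at 1.59-fold, and the intervals of the second and the last of these included 1. Just outside the mark were regions at 1.43, 1.40 and 1.28 times the control.

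The drivers were then compared region by region. For 14 regions of chromosome 4, 143 kb in all, both lists gave identical bounds, so that all 4 libraries measured the same bases. Control levels were alike, with a Pearson r of 0.98 over the 14 regions and a median tj to nos ratio of 1.1, ranging from 0.940 to 1.37. The log2 ratio of piwi over white was higher under tj in 10 of 14, by a median of 0.29. The interval of that difference lay above 0 for 6 and below 0 for 0. No such count is given here for other sequences, so the gap is not shown to be particular to chromosome 4. With the other library totals the median difference was 0.51, and after centring on the other regions 0.49. The drivers' ratios themselves had a Spearman rho of 0.12 over these 14 regions, which share libraries.

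Of the 4 widest gaps among the identical regions, 3 lay in the stretch from 880501 to 989500. At chr4:934001-952500, tj piwi had 92.4 and tj white 79.8 RPM per kb, whereas nos piwi had 45.7 and nos white 74.7. The difference in log2 ratio, tj minus nos, was 0.92 (0.78 to 1.06). At chr4:880501-900000 the values were 93.8 and 83.9 under tj and 47.9 and 73.6 RPM per kb under nos, a difference of 0.78 (0.64 to 0.92). At chr4:953501-989500 they were 42.0 and 40.4 under tj and 22.9 and 34.2 under nos, a difference of 0.63 (0.48 to 0.78). Outside that stretch, chr4:1264001-1270000 had 25.5 and 32.8 under tj and 12.7 and 25.5 under nos, a difference of 0.65 (0.19 to 1.1). In these 4 regions nos piwi knockdown is the library that stands below the other three. By contrast chr4:150501-153000 had 93.9 and 83.2 RPM per kb under tj and 92.8 and 82.3 under nos, with a difference of 0.00030 (-0.34 to 0.34).

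**Figure D5:**
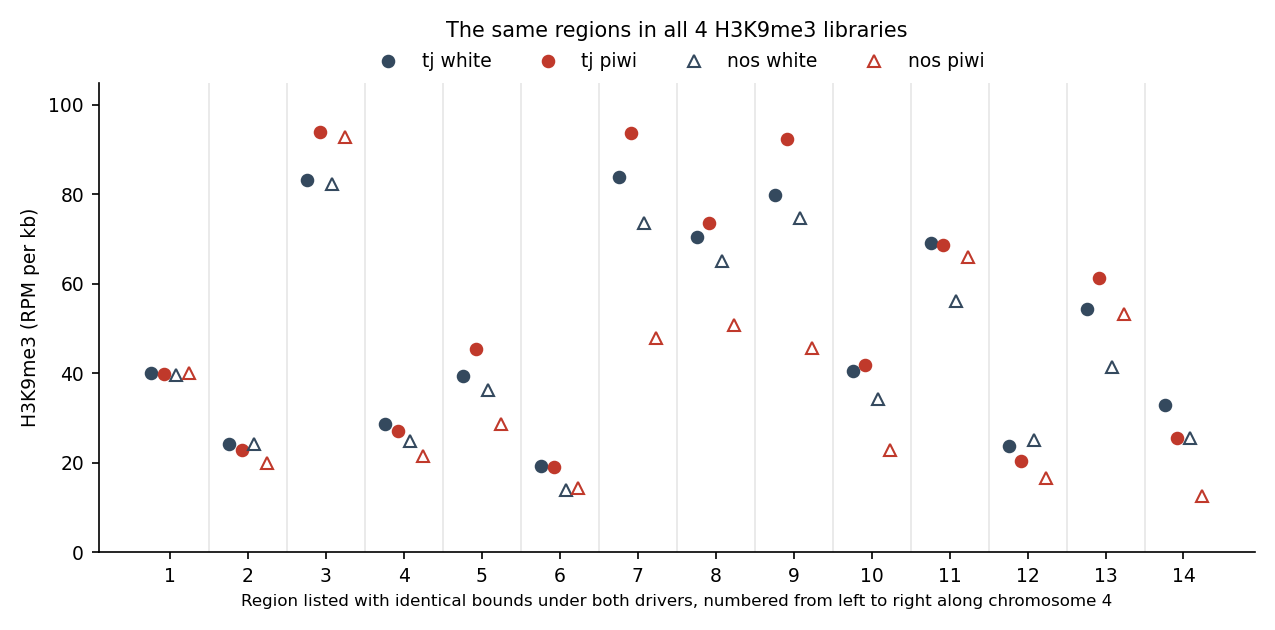
H3K9me3 level in RPM per kb of the 14 chromosome 4 regions with identical bounds in both lists, in all 4 libraries, numbered from left to right. Circles are tj and triangles nos libraries, dark for white and red for piwi knockdown. Regions 7, 9, 10 and 14 (starting at 880501, 934001, 953501 and 1264001) have a nos piwi level well below the other three libraries, while in region 3 (starting at 150501) both piwi levels lie above both white levels.

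Stretches that were low under one driver were compared with the other list. They were chosen because every region in 1 list lay below 1. A ratio nearer to 1 in the other list can follow from that choice alone, so no difference between drivers is read from it. Over the longest nos stretch, from 852001 to 1027500, the 10 overlapping tj regions had a summed ratio of 0.989 (0.967 to 1.01), with 5 above and 5 below 1. Over the nos stretches from 348501 to 448000 (0.695) and from 455501 to 557000 (0.765), the tj ratios were 1.03 (0.990 to 1.08) and 1.04 (0.992 to 1.09). Over the tj stretch from 269001 to 316500 (0.694), the nos ratio was 1.02 (0.854 to 1.22). In these 4 stretches the low ratio stood in 1 list. Over the tj stretch from 719001 to 793500, the 6 overlapping nos regions had 1012 RPM in piwi and 1173 RPM in white knockdown, a ratio of 0.863 (0.796 to 0.934), nearer to 1 than the 0.578 under tj. At its centre the nos region chr4:749501-753000 had 52.7 against 53.4 RPM, a ratio of 0.987 (0.678 to 1.43). It overlaps the 2 tj regions with the smallest ratios, which gave 2 of the 5 widest gaps between overlapping regions with 30 or more reads in 1 library of each list and reads in all 4, -2.89 and -1.85 on the log2 scale. The other three wide gaps went the other way and are given with the flagged results. Over the first nos stretch, from 104501 to 146500, the 4 overlapping tj regions were all below 1 as well, at a summed ratio of 0.852 (0.799 to 0.909). Over the stretch from 819001 to 847500, the 2 overlapping tj regions were at 0.659 (0.621 to 0.70). Here both drivers had a lower RPM in piwi knockdown. Among all 124 overlapping pairs, the 2 ratios lay on the same side of 1 in 71. Both intervals lay below 1 in 20 pairs and above 1 in 4, the tj interval lay above and the nos interval below 1 in 17, and the reverse held in 1. The 124 pairs come from 87 tj and 112 nos regions. A region that overlaps several regions of the other list enters several pairs, so these are not counts of separate places. No such tally is given here for other sequences.

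The authors' adjusted p-value was under 0.001 for 19 of 98 chromosome 4 regions under tj (12.7% over all regions) and for 8 of 115 under nos (21.8% over all regions), in the authors' deposited table. In both lists every region with an authors' fold below 1 carries an adjusted p-value of 1, so these values speak only to regions that were higher in piwi knockdown and say nothing of the lower ones.

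The transposons hoppel (listed by its number in the authors' table) and INE-1, of which chromosome 4 holds many copies, were measured over all their copies in the genome and not on chromosome 4 alone. The H3K9me3 level of hoppel over input was 2.36 in tj piwi and 2.60 in tj white knockdown, a ratio of 0.908 (0.869 to 0.948), and 2.32 in nos piwi and 2.23 in nos white knockdown, a ratio of 1.04 (0.994 to 1.08). For INE-1 the ratio was 0.974 (0.798 to 1.19) under tj and 0.965 (0.779 to 1.20) under nos.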

How the data were processed

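Regions came from 2 deposited lists, 1 per driver. Per the file headers, the authors gave RPM per region in piwi and in white knockdown, a fold, and adjusted p-values. The submitters' processing notes name Bowtie2 2.0.0, SICER 1.1 and build dm3. Their roles, and which libraries regions were called on, are not given in the sources used here. Numerically, the authors' fold ratio equals the ratio of reads + 1 per library total. Bounds lie on a grid of 500 bases and were read as counting from 0, with 1 added here. Every RPM value was a whole number of reads within 1e-06 reads for totals of 1435888 (tj piwi), 1451863 (tj white), 987157 (nos piwi) and 1385901 (nos white), which gave the reads. Each such library has 1 sample per group, so no count test was possible.

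Changes are ratios of deposited RPM, with exact Clopper-Pearson 95% intervals from the reads. Since PCR copies were not marked by molecular identifiers, intervals and floors (3 reads) cover counting error only. The 1.5-fold mark was used for counting. Differences between drivers and element ratios have normal 95% intervals from the sum of reciprocal reads. The authors' transposon table gives RPM and the H3K9me3 to input ratio. Its totals are 2514000 to 3047000. Intervals were checked on simulated reads.

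Named regions were the 8 largest and 8 smallest ratios among regions with 30 or more reads in 1 library, the 8 highest control levels, the 5 longest, the 3 regions on each side of the mark, and the 5 widest gaps between overlapping regions that met the same minimum and had reads in all 4 libraries, and others were chosen after their values were seen. Stretches are runs of at least 5 consecutive listed regions on 1 side of 1, also chosen after seeing the values, like the 100-kb windows. The members and lists were chosen with earlier results of these data known. No genome or annotation of dm3 was used here, so genes and sequences under the regions are not described. Python 3.11.15, numpy 2.4.6, pandas 2.3.3, scipy 1.17.1 and matplotlib 3.10.9 were used.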

Additional observations from a re-analysis of the deposited data

Results flagged for a closer look

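Results were picked out here where the log2 ratios of the drivers had opposite signs, and no such difference was tested between replicates. The summed log2 ratio of chromosome 4 was 0.0058 under tj and -0.28 under nos. The first has no direction, since its counting interval includes 0. Among the 5 pairs named for their gap, 3 had opposite signs, and over all 124 overlapping pairs the intervals lay on opposite sides of 1 in 17 pairs with tj above and in 1 with tj below. Some regions enter several of the 124 pairs, so the pairs are not separate places. No such count is given here for other sequences, so it is not shown to be particular to chromosome 4. Within each list, the interval lay below 1 for 41.7% of nos and 26.5% of tj regions. It lay above 1 for 8.70% and 25.5%, so the count of pairs partly restates these shares. At chr4:555001-556500 the log2 ratio was 1.44 under tj, and the overlapping nos region chr4:554501-557000 had -1.16, a gap of 2.60 (1.42 to 3.78). At chr4:1043001-1046000 it was 0.49 under tj, and at chr4:1043001-1045000 it was -1.58 under nos, a gap of 2.07 (1.17 to 2.97). The tj region chr4:795001-810000 had 0.34 and the nos region chr4:795001-796000, which covers 1000 bases of it, had -1.25, a gap of 1.59 (0.51 to 2.67). These pairs differ in their bounds, and the nos regions hold 9 to 16 reads in piwi knockdown.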

How the results depend on the processing

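No paired analysis was possible because each group had 1 library, and for the same reason no replicate could be left out. At 2-fold, 2 tj regions were higher and 7 lower (8.07% and 9.14% over all regions). Under nos 2 were higher and 22 lower (11.4% and 13.8% over all regions). With at least 100 reads, 0 tj regions were higher and 10 lower (6.58% and 13.4% over all such regions). Under nos 1 was higher and 13 lower (14.4% and 14.2% over all such regions). Among regions with an authors' adjusted p-value under 0.001, 0 were lower under either driver and the medians were 0.28 (tj) and 0.71 (nos), since that p-value is 1 for every region with a fold below 1. By counting interval, 25 tj regions were higher and 26 lower (16.0% and 20.1% over all regions). By the same measure 10 nos regions were higher and 48 lower (27.8% and 17.6% over all regions). Centred on the other regions, 47 nos regions were lower (23.9% over all regions), and the medians were 0.014 (tj) and -0.44 (nos). With the transposon table's totals, 4 nos regions were higher (15.8% over all regions) and 53 lower (26.1% over all regions), and the medians were -0.032 and -0.51. Summed RPM gave 0.0058 under tj, regions with 100 reads -0.22 under nos, identical bounds 0.024 and -0.30, and leaving out the lowest 100-kb window -0.24 under nos. Against the euchromatic arms alone the median differed by 0.043 (tj) and -0.28 (nos), and against the scaffolds alone by -0.024 and -0.63. Control level over that of the arms was 1.37 (tj) and 1.26 (nos), and over that of the scaffolds 1.01 and 0.936. With 50% reciprocal overlap, 60 nos regions were shared. The median gap between drivers was 0.51 with the other totals and 0.49 after centring. The direction of the nos median held in every alternative except the authors' p-value, and that of tj did not. The cause was not tested. In 50-kb windows the lowest log2 ratios were -0.95 (tj) and -0.80 (nos).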
